A study of Mus musculus with 8 samples.

Results

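The 10 genes described here are the D cyclins Ccnd1, Ccnd2 and Ccnd3, their kinases Cdk4 and Cdk6, the CDK inhibitors Cdkn1a, Cdkn1b and Cdkn1c of the CIP/KIP family and Cdkn2b and Cdkn2c of the INK4 family. They were chosen by symbol, out of 17097 genes that the arrays measured with probe sets of a single symbol, and all 10 were among the 14403 genes tested. They were read by 24 probe sets, and the brightest probe set of a gene, by its mean over the 8 arrays, was taken as the leading one. Every mouse was K14-CreER/Ptch1cKO, a genotype in which Cre under the keratin 14 promoter deletes Ptch1, the Hedgehog receptor that restrains Smoothened, and whose back skin bore basal cell carcinomas. Both the untreated and the vismodegib groups carry this deletion, and there was no group of normal skin. Vismodegib inhibits Smoothened. The sources used here do not give its dose or duration, or the age of the mice.

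From each of 2 untreated and 2 vismodegib mice, Lrig1+ cells of the epidermis were split by the fluorescence of an Lgr5-GFP reporter, Lgr5 being a marker of stem cells of the hair follicle. The 4 groups are untreated Lgr5-negative, untreated Lgr5-positive, vismodegib Lgr5-negative and vismodegib Lgr5-positive cells, with n = 2 mice in each and 1 array per mouse and population. The questions were which of the 10 genes changed with vismodegib in each population, and how the populations differed with and without it.

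D cyclins bind Cdk4 and Cdk6 in G1, and the active pair phosphorylates the retinoblastoma protein, which releases E2F factors and lets a cell enter S phase. INK4 proteins bind the kinases and keep D cyclins off them, while CIP/KIP proteins block the later cyclin E and Cdk2 complexes and can also help D cyclins and their kinases assemble. D cyclin genes are known to answer to Hedgehog, MYC and ERK signals, Cdkn2b to TGF-beta and Cdkn1a to p53. Much of the control of these proteins lies in their degradation and location, which RNA does not show.

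All levels are log2 signals, so a step of 1 is a doubling. They are compared within a probe set and not between genes, since probe sets differ in how strongly they bind. Over the 8 arrays, the keratins of basal cells Krt14 and Krt5 lay between 12.23 and 12.67 and between 12.71 and 12.92. Lgr5 lay at 8.52 and 8.40 in untreated Lgr5-negative, 10.98 and 11.00 in untreated Lgr5-positive, 5.46 and 4.83 in vismodegib Lgr5-negative and 9.44 and 10.03 in vismodegib Lgr5-positive cells, higher in the positive gate under each treatment. Ptch1, which is also a target of Hedgehog signalling, lay between 10.56 and 11.91 in untreated and between 7.72 and 8.78 in vismodegib arrays. In sorted populations a change in the share of a cell type and a change in RNA per cell cannot be told apart.

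The largest movements were a rise of Ccnd2 and a fall of Cdkn2b with vismodegib in Lgr5-positive cells. Whether these drug effects differed between the populations depended on the fit or the probe set, as given below. In Lgr5-positive cells 1 of the 10 genes rose (Ccnd2), where 6.37% of all genes tested rose, and 1 fell (Cdkn2b), where 4.51% fell. In Lgr5-negative cells 1 rose, Ccnd2 again, where 1.26% of all genes rose, and 0 fell, where 2.06% did. In untreated mice 3 of the 10 were higher in Lgr5-positive than in Lgr5-negative cells (Cdkn2b, Ccnd1 and Cdkn1c), where 6.21% of all genes were higher, and 1 was lower (Ccnd2), where 10.9% were lower. In vismodegib mice 0 of the 10 differed in limma's test and 0 reached an unadjusted p under 0.05, where 0.34% of all genes were higher and 0.132% lower after adjustment and 1749 genes reached that unadjusted p. The median log2 difference of the 10 was −0.12 for vismodegib in Lgr5-positive cells, against −0.0062 over all genes tested, 0.10 in Lgr5-negative cells, against 0.0048, and 0.20 between untreated populations, against 0.023, so the 10 had no common direction. The drug comparison in Lgr5-positive cells and the population comparison in untreated mice share the untreated Lgr5-positive arrays, so a high or low level there enters both. With 2 arrays in a group, the arrays of 2 groups often lie apart without a change. How often this held over all genes was not counted, so arrays said below to lie apart are a description only.

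The plot of levels by array shows the 10 genes over the 4 groups.

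**Figure D1:**
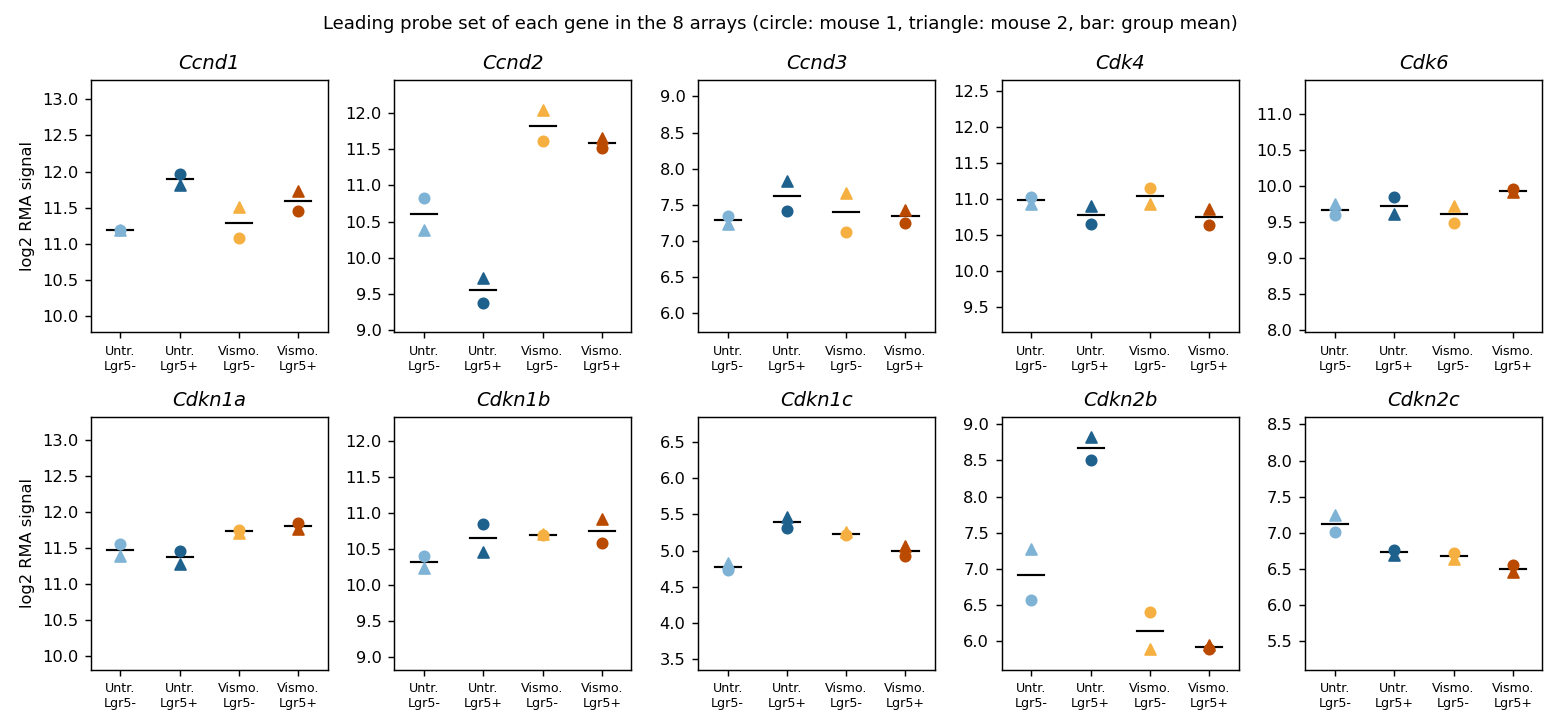
Log2 signal of the leading probe set of each of the 10 genes in the 8 arrays, by group, with each point 1 mouse and each bar the mean of 2. Ccnd2 is lowest and Cdkn2b highest in untreated Lgr5-positive cells, while Cdk4 and Cdk6 stay within narrow ranges over the arrays.

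Ccnd1, the D cyclin most often raised in tumours, lay at 11.19 and 11.19 in untreated Lgr5-negative, 11.97 and 11.82 in untreated Lgr5-positive, 11.07 and 11.51 in vismodegib Lgr5-negative and 11.45 and 11.74 in vismodegib Lgr5-positive cells. Both untreated Lgr5-positive arrays were above the other 6. In untreated mice Ccnd1 was 1.63-fold higher in Lgr5-positive than in Lgr5-negative cells (log2 fold change 0.70 ± 0.17 SE, limma adjusted p = 0.0324), and its 3 probe sets all passed, with differences from 0.70 to 0.80. Leaving out any 1 of the 4 untreated arrays ended this call: the adjusted p was 0.129 without Lgr5-negative mouse 1, 0.163 without Lgr5-negative mouse 2, 0.117 without Lgr5-positive mouse 1 and 0.0641 without Lgr5-positive mouse 2. In vismodegib mice the same difference was 0.30 ± 0.17 (adjusted p = 0.541), with groups that overlapped. The effect of vismodegib in Lgr5-positive cells was −0.30 ± 0.17 (adjusted p = 0.337), which did not pass although both treated arrays were below both untreated ones.

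Ccnd2, a D cyclin known as a target of MYC, lay at 10.82 and 10.38 in untreated Lgr5-negative and 9.38 and 9.71 in untreated Lgr5-positive cells. In vismodegib mice it lay at 11.61 and 12.05 in Lgr5-negative and 11.52 and 11.65 in Lgr5-positive cells. All 4 vismodegib arrays were above all 4 untreated ones, and the untreated Lgr5-positive arrays were the lowest of the 8. With vismodegib Ccnd2 rose 4.12-fold in Lgr5-positive cells (2.04 ± 0.21, adjusted p = 0.00136). It rose 2.34-fold in Lgr5-negative cells (1.23 ± 0.21, adjusted p = 0.0292). Averaged over both populations of each mouse, the rise was 3.1-fold (1.63 ± 0.12, adjusted p = 0.00406).

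The populations of untreated mice differed the other way round from Ccnd1: Ccnd2 was 2.08-fold lower in Lgr5-positive cells (−1.06 ± 0.21, adjusted p = 0.0158). In vismodegib mice the difference was −0.24 ± 0.21 (adjusted p = 0.699). The call in untreated mice was lost without Lgr5-negative mouse 1 (−0.84, adjusted p = 0.0943) and without Lgr5-positive mouse 1 (−0.89, adjusted p = 0.0685). The call for vismodegib in Lgr5-negative cells was lost without untreated Lgr5-negative mouse 1 (adjusted p = 0.0613) or mouse 2 (0.211), without vismodegib Lgr5-negative mouse 2 (0.0920) without either vismodegib Lgr5-positive array (0.0595 each), and in a fit of only the 4 arrays compared (0.0737). The rise in Lgr5-positive cells passed under every alternative run, with adjusted p-values from 0.00055 to 0.0139.

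Ccnd2 was read by 6 probe sets. In the fit of every probe set, all 6 rose in Lgr5-positive cells, by 2.04 to 2.70, and all 6 were lower in the Lgr5-positive cells of untreated mice, by −1.84 to −1.06. In Lgr5-negative cells 4 of the 6 passed, with rises from 1.01 to 1.29 over the 6. The leading probe set thus gave the smallest change of the 6 in Lgr5-positive cells.

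**Figure D2:**
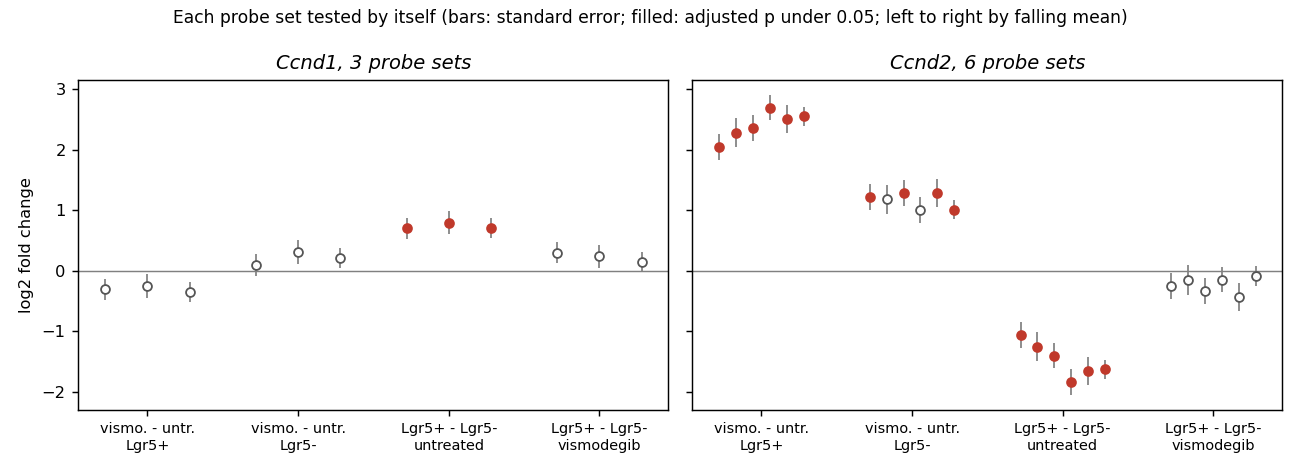
Log2 fold change of the 3 probe sets of Ccnd1 and the 6 of Ccnd2, 1 point per probe set with bars of 1 SE, for vismodegib in each population and for the populations under each treatment; filled points passed an adjusted p of 0.05. The 6 probe sets of Ccnd2 lie above 0 for vismodegib in both populations and below it between untreated populations.

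Ccnd3, the D cyclin of many differentiating tissues, lay between 7.13 and 7.83 over the 8 arrays. Its differences in the 7 comparisons ran from −0.40 to 0.34, with adjusted p-values from 0.315 to 0.938. The other of its 2 probe sets gave a difference of 0.90 between untreated populations (adjusted p = 0.0249 in the fit of every probe set), higher in Lgr5-positive cells, where the leading one gave 0.34. The D cyclins thus had no shared direction: in the Lgr5-positive cells of untreated mice Ccnd1 was higher and Ccnd2 lower.

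The kinases had the narrowest ranges of group means of the 10, 0.29 for Cdk4 and 0.33 for Cdk6. Cdk4 lay between 10.64 and 11.16 and its differences in the 7 comparisons ran from −0.29 to 0.06, with adjusted p-values from 0.167 to 0.957. Every Lgr5-positive array was below every Lgr5-negative one for Cdk4 (−0.25 ± 0.11 over both treatments, adjusted p = 0.167). Cdk6 lay between 9.49 and 9.95, with differences from −0.06 to 0.33 and adjusted p-values from 0.241 to 0.870. Its vismodegib Lgr5-positive arrays were the highest of the 8. Each has 3 probe sets, and 0 of them passed in any comparison. Some probe sets of Cdk4 and of Ccnd2 are of types that may cross-hybridise to similar transcripts.

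The Cdk4 promoter carries copies of the E-box CACGTG, the motif bound by MYC family proteins. The 250 bases before the start of Cdk4 in the RefSeq annotation of GRCm38.p6, chr10:127063285-127063534 on the plus strand, hold 4 copies, shown in capitals because the levels of Myc and Mycn moved in these cells while Cdk4 did not pass in any comparison:

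Cdk4: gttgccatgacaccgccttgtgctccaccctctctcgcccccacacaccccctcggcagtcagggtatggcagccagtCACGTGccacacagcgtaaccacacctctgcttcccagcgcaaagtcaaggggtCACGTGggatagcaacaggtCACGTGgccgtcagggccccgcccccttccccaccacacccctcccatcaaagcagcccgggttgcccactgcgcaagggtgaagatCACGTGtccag

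The E-box was searched on both strands, where it reads the same, and 6.02% of 32851 promoter windows of that length hold at least 1. A match is a description of the sequence only. Mycn, a Hedgehog target in several tissues, lay at 8.01 and 7.94, 8.98 and 9.31, 7.31 and 7.42, and 7.63 and 7.79 in the groups in the order above. Its log2 level fell by 1.44 ± 0.14 with vismodegib in Lgr5-positive cells (adjusted p = 0.00114). Averaged over the populations of each mouse, Mycn fell by 1.02 ± 0.10 (adjusted p = 0.00866) and Myc rose by 1.01 ± 0.18 (adjusted p = 0.0376). Myc lay between 9.83 and 10.70 in the untreated and between 11.06 and 11.25 in the vismodegib arrays.

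Cdkn1a, which encodes p21, the inhibitor that p53 induces, lay at 11.56 and 11.38 in untreated Lgr5-negative, 11.46 and 11.28 in untreated Lgr5-positive, 11.75 and 11.71 in vismodegib Lgr5-negative and 11.84 and 11.77 in vismodegib Lgr5-positive cells. All 4 vismodegib arrays were above all 4 untreated ones by a small margin. The difference in Lgr5-positive cells was 0.43 ± 0.12 (adjusted p = 0.0644) and did not pass for the leading probe set. Its other probe set gave 0.60 and passed in the fit of every probe set (adjusted p = 0.0469). Over both populations the difference was 0.35 ± 0.10 (adjusted p = 0.121).

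Cdkn1b, which encodes p27, the inhibitor of resting cells, lay between 10.24 and 10.92. Its differences ran from −0.28 to 0.38 over the 7 comparisons, with adjusted p-values from 0.228 to 0.931. Cdkn1c, which encodes p57 and is imprinted, was dim: its single probe set lay at 4.73 and 4.82, 5.32 and 5.47, 5.21 and 5.25, and 4.92 and 5.06 in the 4 groups in the same order, close to the level of 4.85 that a gene had to pass in 2 arrays to be tested. Both untreated Lgr5-negative arrays were under that level. In untreated mice Cdkn1c was 1.54-fold higher in Lgr5-positive cells (0.62 ± 0.12, adjusted p = 0.0132). The call was lost without untreated Lgr5-negative mouse 1 (adjusted p = 0.0870) or mouse 2 (0.0764).

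With vismodegib the Cdkn1c arrays moved in opposite directions in the 2 populations, and neither change passed the threshold. The untreated Lgr5-positive arrays were above the Lgr5-negative ones, and the vismodegib Lgr5-positive arrays below them. The difference was −0.40 ± 0.12 in Lgr5-positive cells (adjusted p = 0.0721) and 0.46 ± 0.12 in Lgr5-negative cells (adjusted p = 0.0889), and in each case the treated and untreated arrays did not overlap.

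Cdkn2b, which encodes p15, the INK4 inhibitor that TGF-beta induces in epithelial cells, had the widest range of group means of the 10, 2.75 on the log2 scale. Its single probe set lay at 6.57 and 7.27 in untreated Lgr5-negative, 8.51 and 8.82 in untreated Lgr5-positive, 6.40 and 5.88 in vismodegib Lgr5-negative and 5.89 and 5.95 in vismodegib Lgr5-positive cells. The 2 untreated Lgr5-positive arrays stood above the other 6. With vismodegib Cdkn2b fell 6.72-fold in Lgr5-positive cells (−2.75 ± 0.26, adjusted p = 0.000996). In Lgr5-negative cells the difference was −0.77 ± 0.26 (adjusted p = 0.164), which did not pass, although both treated arrays were below both untreated ones. Over both populations of each mouse Cdkn2b fell 3.39-fold (−1.76 ± 0.19, adjusted p = 0.00967).

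In untreated mice Cdkn2b was 3.36-fold higher in Lgr5-positive than in Lgr5-negative cells (1.75 ± 0.26, adjusted p = 0.00556). In vismodegib mice the populations overlapped, with a difference of −0.22 ± 0.26 (adjusted p = 0.777), whose sign turned without vismodegib Lgr5-negative mouse 1 (0.037). The fall in Lgr5-positive cells, the fall over both populations and the difference between untreated populations passed under every alternative run.

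The 250 bases before the start of Cdkn2b in the RefSeq annotation of GRCm38.p6, chr4:89311033-89311282 on the minus strand, are shown because this gene changed the most, with the cyclic AMP response element TGACGTCA in capitals:

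Cdkn2b: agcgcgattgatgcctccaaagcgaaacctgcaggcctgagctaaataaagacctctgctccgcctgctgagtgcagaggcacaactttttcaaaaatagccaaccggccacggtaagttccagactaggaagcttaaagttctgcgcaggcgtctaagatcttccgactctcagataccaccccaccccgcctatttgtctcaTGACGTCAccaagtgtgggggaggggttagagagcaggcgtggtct

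The window holds 1 copy of this element, which 1.55% of the 32851 windows hold, and 0 of the GC box GGGCGG, which 32.7% hold, with both strands searched. A total of 7 of the 10 genes had a promoter entry, while Ccnd1, Ccnd2 and Cdkn1c had none and were not searched. In the windows of the 7 genes with an entry, 0 copies were found of the GLI motif GACCACCCA, which 0.225% of all windows hold. The same windows held 0 copies of the E2F motifs TTTCCCGC and TTTGGCGC, at least 1 of which is in 1.3% of all windows. These counts say only that those letters are not in these windows.

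Cdkn2c, which encodes p18, another INK4 inhibitor, moved less. Its single probe set lay at 7.01 and 7.25 in untreated Lgr5-negative, 6.77 and 6.69 in untreated Lgr5-positive, 6.72 and 6.63 in vismodegib Lgr5-negative and 6.55 and 6.46 in vismodegib Lgr5-positive cells. The untreated Lgr5-negative arrays were the highest and the vismodegib Lgr5-positive ones the lowest. None of the 7 comparisons passed. The nearest were −0.40 ± 0.12 between untreated populations (adjusted p = 0.0671) and −0.29 ± 0.09 between populations over both treatments (adjusted p = 0.0729). With vismodegib the differences were −0.45 ± 0.12 in Lgr5-negative cells (adjusted p = 0.107) and −0.34 ± 0.09 over both populations (adjusted p = 0.104). Cdkn2c thus lay on the opposite side from Cdkn2b between untreated populations.

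**Figure D3:**
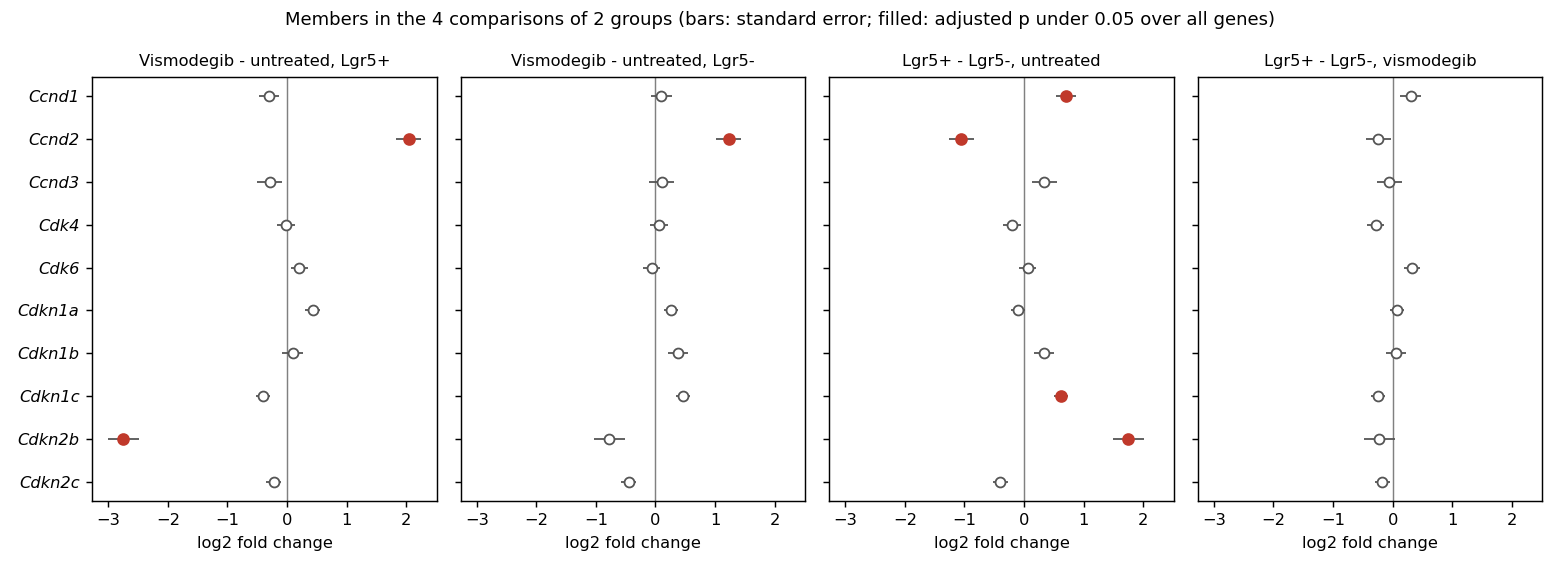
Log2 fold change of the 10 genes with bars of 1 SE, for vismodegib in each population and for Lgr5-positive against Lgr5-negative cells in each treatment, with filled points past an adjusted p of 0.05. Filled points are Ccnd2 and Cdkn2b for vismodegib in Lgr5-positive cells, Ccnd2 in Lgr5-negative cells, and Ccnd1, Ccnd2, Cdkn1c and Cdkn2b between untreated populations.

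Whether vismodegib acted differently in the populations was tested as the difference between its effects, Lgr5-positive minus Lgr5-negative. Of the 10 genes 0 passed in either direction, where 0.993% of all genes had a higher and 0.41% a lower effect in Lgr5-positive cells, and 3 reached an unadjusted p under 0.05, as 2556 genes did. For Cdkn2b the difference was −1.97 ± 0.37 (adjusted p = 0.0527). With the mouse as a block, which the shared source of the populations allows, it passed (adjusted p = 0.0265), and over all alternatives the adjusted p ran from 0.0265 to 0.184. For Cdkn1c it was −0.86 ± 0.17 (adjusted p = 0.0597, range over alternatives 0.0266 to 0.209). For the leading probe set of Ccnd2 it was 0.81 ± 0.30 (adjusted p = 0.22), the smallest of its 6 probe sets, which ran from 0.81 to 1.69. In the fit of every probe set 1 of the 6 passed (1.54 ± 0.23, adjusted p = 0.0381), and the mean of the 6 gave 1.24 (adjusted p = 0.0794, where the range over alternatives for Ccnd2 was 0.0595 to 0.454). For both Cdkn2b and Ccnd2, whether the drug effects differed between the populations thus depended on the fit or the probe set.

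Over both populations of each mouse, vismodegib raised 1 of the 10 genes, where 3.55% of all genes rose, and lowered 1, where 3.21% fell. Over both treatments, 2 of the 10 were higher in Lgr5-positive cells, where 5.44% of all genes were, and 1 was lower, where 8.37% were. These were Ccnd1 (0.50 ± 0.12, adjusted p = 0.0356), Cdkn2b (0.76 ± 0.18, adjusted p = 0.0349) and Ccnd2 (−0.65 ± 0.15, adjusted p = 0.0297). All 3 have larger differences in untreated than in vismodegib mice, and 0 of them passed without untreated Lgr5-negative mouse 1, untreated Lgr5-positive mouse 1 or either vismodegib Lgr5-positive array. Without untreated Lgr5-positive mouse 2 only Ccnd2 passed.

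Downstream of the D cyclins, the E2F and RB list with cyclin E and cyclin A partners had 19 genes tested. In untreated mice 10.9% of all genes were lower in Lgr5-positive cells and 6.21% higher. Of the 19, 7 were lower and 0 higher there, with a median of −0.24 against 0.02 over all genes. The largest of these differences were those of E2f7 (−1.62 ± 0.14), Ccna2 (−1.50 ± 0.25), E2f2 (−1.47 ± 0.20) and E2f8 (−1.47 ± 0.21). Ccna2 encodes the cyclin of S phase, and E2f7 and E2f8 are repressors that E2F itself induces. Of 21 proliferation genes 16 were lower there and 0 higher, with a median of −1.22. The population with the higher Ccnd1 and Cdkn2b thus had lower levels of cell cycle genes, and the one with the higher Ccnd2 had higher levels.

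With vismodegib 3 of the 19 rose in Lgr5-positive cells, E2f2 (0.97 ± 0.20), E2f3 (0.84 ± 0.18) and E2f7 (0.56 ± 0.14), and 0 fell. In Lgr5-negative cells E2f7 fell by 0.79 ± 0.14 on the log2 scale and 0 rose. The difference between these effects passed for E2f7 (1.35 ± 0.20, adjusted p = 0.0286). E2f7 lay at 6.78 and 7.04, 5.34 and 5.24, 6.07 and 6.16, and 5.73 and 5.97 in the 4 groups in the order above. Among proliferation genes 1 of 21 rose in Lgr5-positive cells, Tyms, the thymidylate synthase (0.57 ± 0.14), with a median of 0.08. In Lgr5-negative cells 2 of 21 fell, Ccnb2 and Rrm2, with a median of −0.46. In vismodegib mice 0 of 21 passed between the populations, where 0.34% of all genes were higher and 0.132% lower in Lgr5-positive cells. The median of the 21 was −0.50, and 1 of 21 lay above 0. Over all genes tested, 6.37% rose and 4.51% fell with vismodegib in Lgr5-positive cells, and 1.26% rose and 2.06% fell in Lgr5-negative cells. How the counts of these lists relate to the rise of Ccnd2 was not tested.

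**Figure D4:**
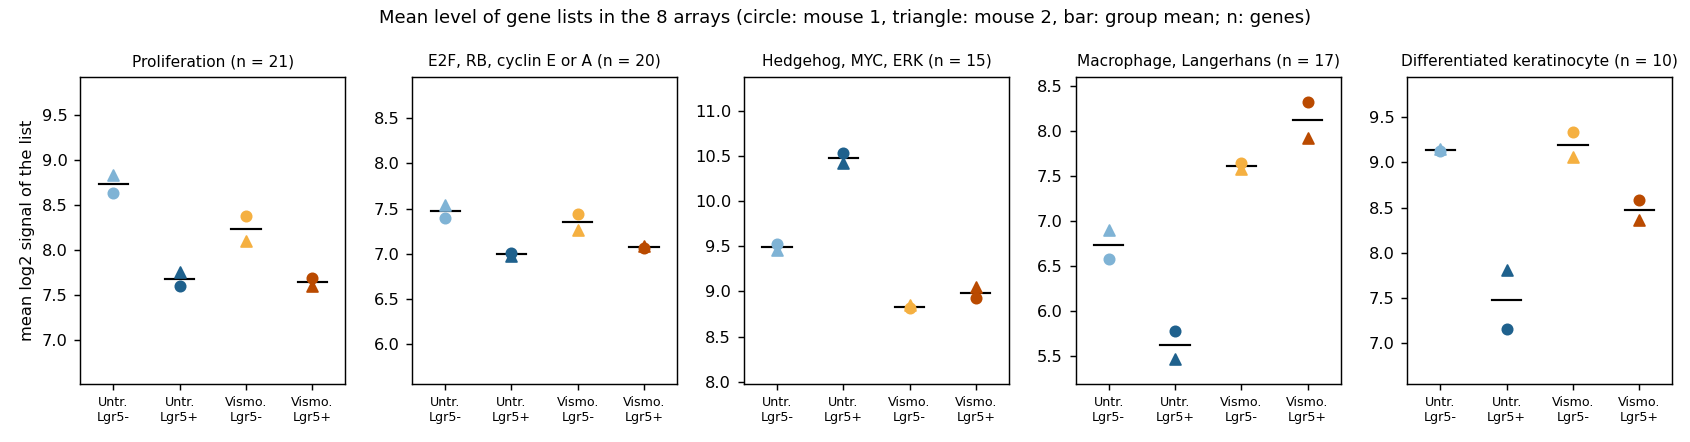
Mean log2 level of 5 gene lists in each of the 8 arrays, by group, with each point 1 mouse and each bar the group mean. Proliferation genes lie between 7.60 and 7.76 in both Lgr5-positive groups and between 8.10 and 8.83 in the Lgr5-negative ones, while macrophage markers are higher in the vismodegib arrays.

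Upstream, the Hedgehog, MYC and ERK list had 15 genes tested. In Lgr5-positive cells 11 fell with vismodegib and 0 rose (median −1.19), where 4.51% of all genes fell. In Lgr5-negative cells 6 fell and 0 rose (median −0.43), where 2.06% of all genes fell. In untreated mice 11 were higher in Lgr5-positive cells (median 0.94), where 6.21% of all genes were. In vismodegib mice 0 passed, where 0.34% of all genes were higher and 0.132% lower. In Lgr5-positive cells the log2 level of Gli1, the Hedgehog transcription factor, fell by 3.52 ± 0.17. Hhip, a Hedgehog target that binds the ligand, fell by 3.94 ± 0.36, and the ERK feedback gene Spry4 by 3.31 ± 0.15. Ccnd2 rose in the cells where Gli1, Hhip and Spry4 fell, and Ccnd1 did not pass in either population. Myc, also of this list, went the other way. It did not pass in either population alone but rose over both populations of each mouse (1.01 ± 0.18, adjusted p = 0.0376). The part of these genes in the levels of the D cyclins was not tested.

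In the list of TGF-beta, FOXO and MIZ1 inputs to CDK inhibitors, 15 genes were tested. With vismodegib in Lgr5-positive cells Tgfb3 and Zbtb17 fell and Tgfb2 rose, where 4.51% of all genes fell and 6.37% rose. Zbtb17 encodes MIZ1, through which MYC is known to repress Cdkn2b, and its change was −0.58 ± 0.12 (adjusted p = 0.0234). Tgfb3, a TGF-beta ligand, lay at 9.31 and 9.21, 10.84 and 10.34, 7.66 and 7.94, and 7.51 and 7.88 in the 4 groups. Its group means had the same order as those of Cdkn2b, highest in untreated Lgr5-positive cells. It fell by 2.89 ± 0.21 in Lgr5-positive cells (adjusted p = 0.000346) and by 1.46 ± 0.21 in Lgr5-negative cells (adjusted p = 0.0146). Tgfb2, another ligand, rose by 1.58 ± 0.24 in Lgr5-positive cells (adjusted p = 0.00653). Between untreated populations 3 of the 15 were higher in Lgr5-positive cells, Tgfb3, Foxo3 and Ski, and 0 were lower. Of all genes 6.21% were higher and 10.9% lower there. Tgfb3 and Tgfb2 thus moved in opposite directions with the drug in Lgr5-positive cells. The part of the genes of this list in the level of Cdkn2b was not tested.

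Of 21 genes of p53 and its targets, 2 rose with vismodegib in Lgr5-positive cells (Plk2 and Polk) and 1 fell (Btg2), with a median of −0.06. These counts lie near the shares over all genes, of which 6.37% rose and 4.51% fell there. In Lgr5-negative cells 0 passed, where 1.26% of all genes rose and 2.06% fell. Of 16 genes for the turnover and assembly of D cyclins and CDK inhibitors, 0 passed for vismodegib in either population. In untreated mice 3 were lower in Lgr5-positive cells, where 10.9% of all genes were lower. They were Cks2 (−1.53 ± 0.39), Cops5 (−0.99 ± 0.23) and Dtl (−0.93 ± 0.22), a subunit of the ligase that degrades p21. Of the other CDK inhibitors 2 of 3 were tested. Cdkn3, a phosphatase that acts on CDKs and is itself highest in dividing cells, was lower in untreated Lgr5-positive cells (−1.81 ± 0.38, adjusted p = 0.0179). Cdkn2a, the neighbour of Cdkn2b in the INK4 locus, lay between 4.49 and 4.96 and was not tested.

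Markers of macrophages and Langerhans cells also changed with vismodegib. Of the 16 tested, 14 rose with vismodegib in Lgr5-positive cells (median 2.47), where 6.37% of all genes rose. In Lgr5-negative cells 4 rose (median 0.97), where 1.26% of all genes did. In the Lgr5-positive cells of untreated mice 6 were lower, where 10.9% of all genes were. The mean level of the list was 6.58 and 6.90, 5.78 and 5.47, 7.64 and 7.58, and 8.32 and 7.92 in the 4 groups. It was highest in vismodegib Lgr5-positive cells, while Ccnd2 had its highest mean in vismodegib Lgr5-negative cells. The largest rises in Lgr5-positive cells were those of Lyz2 (6.73 ± 0.38) and Ctss (5.62 ± 0.58), enzymes of phagocyte lysosomes. The macrophage marker Adgre1 lay between 4.42 and 4.91 in untreated and between 5.06 and 6.57 in vismodegib arrays, and Ptprc, a marker of all leukocytes, between 4.33 and 5.84 and between 6.31 and 7.74. The Langerhans cell marker Cd207 lay at 6.60 and 6.59, 6.09 and 5.80, 6.43 and 7.31, and 5.70 and 6.05 in the 4 groups, and was lower in Lgr5-positive cells over both treatments (−0.82 ± 0.19, adjusted p = 0.0319). In vismodegib mice 2 of the 16 markers, Lyz2 and Cd68, were higher in Lgr5-positive cells, where 0.34% of all genes were. Of the 16 markers 0 were lower there (median 0.46), while Ccnd2 did not pass there. The part of these cells in the rise of Ccnd2 was not tested.

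Markers of differentiated keratinocytes also differed: 5 of 9 were lower in the Lgr5-positive cells of untreated mice (median −1.36), where 10.9% of all genes were. With vismodegib 3 of 9 rose in Lgr5-positive cells, where 6.37% of all genes rose, with the largest rise that of Krt77 (4.55 ± 0.41). In Lgr5-negative cells 1 of 9 rose, Krt77 again (4.59 ± 0.41), and 1 fell, Tgm3 (−2.39 ± 0.15). Of all genes 1.26% rose and 2.06% fell there. The part of these markers in the population differences of the 10 genes was not tested. Of T cell markers 2 of 8 were lower in untreated Lgr5-positive cells, where 10.9% of all genes were lower. Of dermal fibroblast markers 4 of 10 were bright enough to test and 1 was higher there, where 6.21% of all genes were. Of 7 endothelial markers 0 passed in any comparison. Of 7 melanocyte markers 1 rose with vismodegib in Lgr5-positive cells, where 6.37% of all genes rose. Of 7 basal keratinocyte markers, whose mean levels lay between 11.39 and 11.96, 1 changed in several comparisons. This was Krt15, also known as a marker of follicle stem cells, which lay at 9.68 and 9.47, 11.12 and 11.34, 11.65 and 11.81, and 11.44 and 11.85 in the 4 groups. It rose 4.44-fold with vismodegib in Lgr5-negative cells (adjusted p = 0.00185) and was 3.14-fold higher in the Lgr5-positive cells of untreated mice (adjusted p = 0.00163), and the difference between its drug effects passed (−1.73 ± 0.24, adjusted p = 0.0239).

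The genes whose levels over the 8 arrays most resembled those of a member were found by Pearson's r across all genes tested, as a description with no test. The 8 arrays come from 4 mice and 4 groups, so these are not 8 independent points. For Cdkn2b they were Efna5 (r = 0.988), Fads2 (0.977), Slc9b2 (0.976) and Dgkz (0.976). For Ccnd2 they were Chd7 (0.992), Gpcpd1 (0.991), Dusp7 (0.988) and Stk16 (0.986). For Ccnd1 they were Pbxip1 (0.992), Gpld1 (0.988), Ltbp3 (0.986) and Rbm33 (0.985). For Cdkn2c they were Yeats4 (0.990), 4930579G24Rik (0.979), Fads2b (0.978) and Hddc2 (0.974).

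Ordered by the mean in each group, Cdkn2b ran from untreated Lgr5-positive (8.67 ± 0.22 SD, n = 2) through untreated Lgr5-negative (6.92 ± 0.50) and vismodegib Lgr5-negative (6.14 ± 0.37) to vismodegib Lgr5-positive cells (5.92 ± 0.04). The last 3 neighbours did not pass in the tests of each against the next that were run. From its highest mean, Ccnd2 ran from vismodegib Lgr5-negative (11.83 ± 0.31) to vismodegib Lgr5-positive cells (11.59 ± 0.09), which did not pass against each other. Below them lay untreated Lgr5-negative (10.60 ± 0.31) and untreated Lgr5-positive cells (9.55 ± 0.24).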

How the data were processed

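RNA of 8 sorted populations from 4 mice was amplified as cDNA and hybridised to Affymetrix perfect-match mouse arrays. The authors deposited log2 signals made with RMA, per the submitters' processing notes (version not given in the sources used here), which corrects background, normalises by quantiles and summarises probe sets. Quantile normalisation sets all arrays to 1 distribution, so changes are relative to the other genes. Cells were parted with thermolysin, gated as living by Hoechst exclusion and sorted for Lrig1. No marker against leukocytes is named in the labels.

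Of 45141 probe sets, 28898 had 1 symbol in the platform annotation, 551 several, 15588 none and 104 were controls. Each of 17097 genes was read by its probe set with the highest mean. Genes above 4.85, the 25th percentile, in at least 2 arrays were tested (14403, with 2694 set aside). The 4 group means were fitted by lmFit and tested two-sided by eBayes of limma 3.58.1 (R 4.3.3), where 4 degrees of freedom were residual and 3.53 prior. Vismodegib over both populations was tested on the mean of each mouse's arrays (2 and 3.37). Benjamini-Hochberg adjustment ran over all 14403 genes, and 0.05 was the threshold. The number of arrays limits the precision. Data were simulated with limma's moderated variances as independent normal noise, with 200 of 14403 genes changed. There 88% of 2-fold changes were recovered for vismodegib in Lgr5-positive cells and 36% for the difference between effects. The simulation held no effect of the mouse, so these shares check the procedure and are not the power in these data.

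The 10 genes, the lists, the comparisons and the rule for named genes were chosen with earlier results of these data known. Named were all 10 members, up to 4 genes per list and comparison with the largest called change, and for the members with the widest group means the 4 genes of highest Pearson's r. Myc, Mycn, Adgre1, Ptprc, Cd207, Krt5, Krt14 and Cdkn2a were named beyond this rule, after their values were seen. The labels give a mouse number that its 2 arrays share, so the number pairs arrays within a treatment (correlation across genes of deviations from group means 0.142 in untreated and 0.211 in vismodegib mice). Across treatments a number marks different mice. Promoter sequences are RefSeq's (GRCm38.p6). Alternatives were no filter or one at the median, the mean of probe sets or every probe set, cyclic loess, an intensity trend, only the 4 arrays compared, mouse blocks, a 2-fold minimum and leaving out each array.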

Additional observations from a re-analysis of the deposited data

Results flagged for a closer look

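The effects of vismodegib on Cdkn1c differed in direction between the populations, with all arrays apart. Both treated Lgr5-positive arrays (4.92 and 5.06) were below both untreated ones (5.32 and 5.47), and both treated Lgr5-negative arrays (5.21 and 5.25) were above both untreated ones (4.73 and 4.82). The difference between the effects was −0.86 ± 0.17 SE on the log2 scale (limma adjusted p = 0.0597), which did not pass, and neither effect passed by itself. The probe set is dim, close to the level of 4.85 required for testing.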

How the results depend on the processing

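Of 12 calls told above, 5 passed under every alternative: vismodegib on Ccnd2 and on Cdkn2b in Lgr5-positive cells and over both populations, and Cdkn2b between untreated populations. An intensity trend raised the members called to 4 for vismodegib in Lgr5-positive cells (with Cdkn1a and Cdkn1c) and to 2 in Lgr5-negative cells (with Cdkn1c). Only the 4 arrays compared gave 0 in Lgr5-negative cells. A minimum of 2-fold left 2 of 4 calls between untreated populations and 0 of 3 over both treatments. For the difference between effects, 0 members became 1 with the filter at the median, the mouse as a block or every probe set (Cdkn2b in the first 2, Ccnd2 in the last), and 2 with the mean of probe sets, the intensity trend or a random mouse block. Leaving out 1 array gave 0 to 1 members called for vismodegib in Lgr5-negative cells, 1 to 4 between untreated populations and 0 to 2 over both treatments, where each such fit lost at least 1 of the 3 calls. Cdkn2b between vismodegib populations ran from −0.49 to 0.037 in those fits, where a group left with 1 array is assumed to vary like the others. The cause was not tested.

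Pairing: with the mouse as a replicate block, genes called between vismodegib populations went from 68 to 105 with 0 members, and no call of a member changed except Cdkn2b in the difference between effects. The number as a block across treatments, where it pairs nothing, gave 1470, 357 and 679 genes for vismodegib in Lgr5-positive cells, in Lgr5-negative cells and over both, with 2, 1 and 2 members. The other 42 fold changes passed 0 times as leading probe sets and changed sign in 42 of 662 fits.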
